A study of Mus musculus with 7 samples.

Results

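The genes of the mitochondrial ribosome were described in mouse Group 3 (G3) medulloblastoma (MB). Rows of the count table were taken as members when the symbol was Mrpl or Mrps followed by a number and at most one letter from a to c, and this held for 76 of 34592 genes. Of these, 75 passed the filter on low counts and were tested with 17389 genes in all, and Mrpl53 had no reads. RNA of 3 control tumors and of 4 tumors labelled as overexpressing human WDR11 (WDR11OE) was sequenced. All 7 came from tumorsphere line # 19568. The line began with granule neuron progenitors of Trp53-/-; Cdkn2c-/- mice, to which an MSCV retrovirus added Myc and a fluorescent marker. The methods of the paper name GFP as the marker (Myc-IRES-GFP), whereas a figure legend names RFP (Myc-IRES-RFP). In CD1-nu/nu hosts the infected progenitors formed tumors, which were the source of the spheres. Dissociated spheres were infected with a pCDH lentivirus with copGFP in which the EF1 promoter drives WDR11, or with the empty vector, and were implanted without sorting into the cortex of CD1-nu/nu mice, so uninfected cells and cells of the host could be present. Chunks of the tumors were frozen when the mice were moribund, although the source field of the labels names tumorspheres. The labels list the treatment of the controls as none, whereas the protocol names the empty vector.

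The mitochondrial ribosome makes the few membrane proteins of the respiratory chain that are encoded in mitochondrial DNA. Its RNAs come from that DNA, but all of its proteins are encoded in the nucleus, made in the cytosol and imported, so its assembly needs many nuclear genes to be expressed together. Proteins named Mrpl belong to the large subunit, which forms peptide bonds, and proteins named Mrps to the small subunit, which reads the mRNA, with a few exceptions named with their values. MYC is known to raise genes of both ribosomes and of mitochondria, and Myc drives the tumors of this model.

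Total counts were 35463784, 41397427 and 33417175 in control 1, 2 and 3 and 42252257, 85371523, 32116095 and 87141305 in WDR11OE 1, 2, 3 and 4. Levels per tumor are given in this order throughout, in CPM, which relates the count of a gene to the TMM-scaled depth of its library. The table held a row for the human transgene, hWDR11, with 73, 92 and 102 counts in the controls and 185, 169, 99 and 57 counts in the tumors labelled WDR11OE. After scaling these were 2.03, 2.19 and 3.13 CPM in the controls and 4.38, 2.11, 3.05 and 0.624 CPM in the tumors labelled WDR11OE. The groups overlapped, with the lowest level of all in WDR11OE 4, and the log2 fold change was 0.05 ± 0.58 (SE; the quasi-likelihood test of edgeR, Benjamini-Hochberg adjustment, adjusted p = 0.961). Reads in that row did not separate the libraries by their labels, and no other assay of the construct is in the data files. For this line, however, the paper reports more WDR11 transcript by qRT-PCR in tumors given the construct. It also reports WDR11 protein in spheres grown from such tumors. The group is called by its label in all that follows, also where a direction is given.

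Mouse Wdr11 was at 58.9, 58.3 and 59.3 CPM in the controls and 66.8, 60.98, 65.7 and 68.9 CPM in the tumors labelled WDR11OE. Its log2 fold change of 0.16 ± 0.06 (SE) did not pass edgeR's quasi-likelihood test (adjusted p = 0.0910). Myc was at 1109, 821 and 812 CPM in the controls and 389.8, 431, 278 and 289 CPM in the tumors labelled WDR11OE, which was lower in each tumor labelled WDR11OE than in any control (log2 fold change -1.40 ± 0.20, SE; edgeR, adjusted p = 0.00227). Whether reads of the retroviral Myc entered that row was not tested. Trp53 and Cdkn2c, which were deleted in the progenitors, still had reads, at 53.9, 45.04 and 46.2 CPM in the controls and 35.002, 35.6, 32.5 and 27.8 CPM in the tumors labelled WDR11OE for Trp53 and at 15.5, 15.8 and 17.4 CPM in the controls and 25.6, 26.8, 19.1 and 15.2 CPM in the tumors labelled WDR11OE for Cdkn2c. Trp53 was lower without overlap (log2 fold change -0.56 ± 0.11, SE; edgeR, adjusted p = 0.00762). Its call was lost with the GC trend removed, with the length trend removed and with both trends removed (log2 fold change -0.45, -0.51 and -0.38; edgeR, adjusted p = 0.135, 0.103 and 0.243). Cdkn2c did not pass (log2 fold change 0.42 ± 0.20, SE; edgeR, adjusted p = 0.162). A row can count exons outside the deleted part or RNA of the host, so neither of these 2 rows checks the genotype. Atoh1, a defining gene of granule neuron progenitors, had no reads in any of the 7 tumors, and Barhl1 had none in 6 of them. In a list of 8 granule lineage and tumor markers, only Atoh1 was at 0 in every tumor. With Myc the most abundant, the list summed to 1149, 866 and 854 CPM in the controls and 420, 459, 315 and 353 CPM in the tumors labelled WDR11OE. Myc made up most of this sum in every tumor, so the sum follows the Myc row and does not describe the other markers. Of the 6 list genes tested, 0 were higher and 1 lower (Myc), against 18.1% and 15.8% of all genes.

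The libraries also differed in ways that the labels do not name. Sample codes of the groups ran in separate series, so effects of a series and of the label cannot be told apart. WDR11OE 1 and 2 share a number in their titles and were the most alike of the 21 pairs of tumors (Pearson r = 0.993 over genes with an average log2 CPM above 0), against 0.887 for WDR11OE 1 and 4. Their counts still differed by more than sampling noise, as did those of every pair. That comparison covers counting noise only and cannot show whether these 2 libraries are separate tumors. Nothing in the labels says that each library is a separate mouse, so p-values measure the spread between libraries. The 12 neuron markers summed to 513, 181 and 90.3 CPM in the controls and 23.3, 41.5, 258 and 814 CPM in the tumors labelled WDR11OE, with Gad1 the most abundant. They spanned both groups widely, and none of the 12 passed edgeR's test in either direction, where 18.1% of all genes were called higher and 15.8% lower. The 7 astrocyte markers, led by Slc1a2, summed to 741, 707 and 505 CPM in the controls and 346, 359.6, 599 and 984 CPM in the tumors labelled WDR11OE. Of these 7, 1 was higher (S100b) and 0 lower, against 18.1% and 15.8% of all genes, so the share of higher calls was near that of all genes. Skeletal muscle markers summed to 8.31, 8.18 and 6.16 CPM in the controls and 111, 69.02, 162 and 60.3 CPM in the tumors labelled WDR11OE, with Myh4 the most abundant. Of these 13 genes, 12 passed edgeR's test as higher in the tumors labelled WDR11OE, against 18.1% of all genes. Mb, the muscle myoglobin gene, had no reads in any control. The 8 oligodendrocyte markers (most abundant Mbp) summed to 263, 351 and 148 CPM in the controls and 207, 152, 137 and 306 CPM in the tumors labelled WDR11OE, and the 8 microglia and macrophage markers (Tmem119) to 127, 164 and 108 CPM in the controls and 83.7, 101, 127 and 177 CPM in the tumors labelled WDR11OE. None of these 16 passed, against 18.1% higher and 15.8% lower over all genes. The 6 endothelial markers, led by Flt1, summed to 112, 142 and 129 CPM in the controls and 95.8, 88.8, 86.4 and 86.8 CPM in the tumors labelled WDR11OE. Of these 6, 2 were lower (Cdh5 and Flt1), against 15.8% of all genes. In bulk samples, fewer cells of a type and less RNA per cell cannot be told apart, and apart from a fit with the neuron markers as a covariate, the part of these other cells in the results on mitochondrial ribosomal protein genes was not tested.

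Most mitochondrial ribosomal protein genes had higher values in the tumors labelled WDR11OE, by less than 2-fold. Summed over the 76 genes, the level was 1984, 2122 and 2484 CPM in the controls and 2790.5, 2819, 2465 and 2432 CPM in the tumors labelled WDR11OE. WDR11OE 1 and 2 lay above every control, but control 3 lay above WDR11OE 3 and 4, so the summed level overlapped between the groups. The mean was 2196 ± 258 CPM (SD, n = 3) in the controls and 2627 ± 207 CPM (SD, n = 4) in the tumors labelled WDR11OE. When each gene was centred on its mean over the 7 tumors, the median of the 75 genes was -0.33, -0.20 and 0.05 log2 CPM in control 1, 2 and 3 and 0.22, 0.24, 0.02 and 0.02 log2 CPM in WDR11OE 1 to 4. Control 1 was the lowest tumor for 45 of the 75 genes, and WDR11OE 2 was the highest for 37. Control 3, with the smallest neuron sum of the controls, had the highest member sum of the controls, and WDR11OE 1 and 2, with the smallest neuron sums of the 7 tumors, had the highest member sums of the 7. WDR11OE 4, with the largest neuron sum, still lay above control 1 and 2 in its member sum, and WDR11OE 3 lay above control 2 in both sums.

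**Figure D1:**
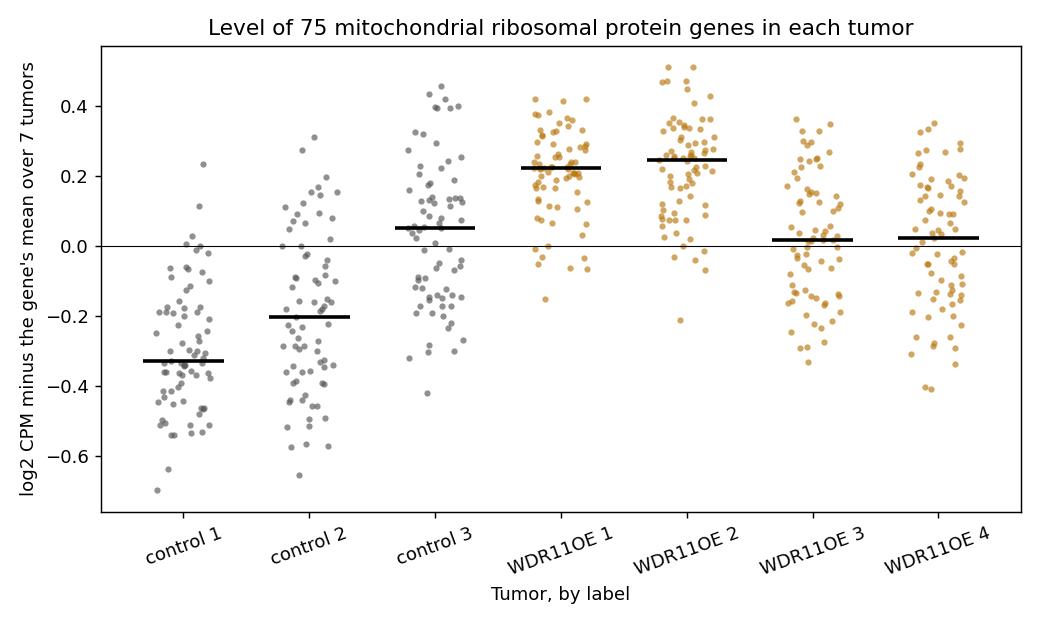
Points show log2 CPM of the 75 tested mitochondrial ribosomal protein genes in each tumor after subtraction of the gene's mean over 7 tumors (vertical axis), and bars show the median. Control 1 has the lowest median (-0.33) and WDR11OE 2 the highest (0.24), while control 3, WDR11OE 3 and WDR11OE 4 lie close together.

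Gene by gene, 31 of the 75 tested members were higher and 2 were lower in the tumors labelled WDR11OE at an adjusted p under 0.05 (the quasi-likelihood test of edgeR, Benjamini-Hochberg adjustment), where 18.1% and 15.8% of the 17389 genes tested were called higher and lower. The median log2 fold change was 0.28 over the members and 0.08 over all genes tested, and 58 members had a value above 0, as did 55.8% of all genes. All tumors labelled WDR11OE lay above all controls for 33 members, against 23.5% of all genes, and below them for 4, against 19.1%. Under the study's stricter call, which also asks for 2-fold or more and a mean log2 CPM over 0, 0 members passed in either direction by edgeR, whereas 2.36% of all genes were called higher and 3.45% lower. By limma-voom and by DESeq2 it was 0 as well, although 37 members were higher and 4 lower at an unadjusted p under 0.05 in edgeR, as in limma-voom, against 33 and 4 in DESeq2. At this unadjusted threshold 23.9% of all genes were higher and 19.9% lower in edgeR, 23.8% and 19.8% in limma-voom, and 21.6% and 22.1% in DESeq2. The largest change was 1.88-fold, in Mrpl18.

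**Figure D2:**
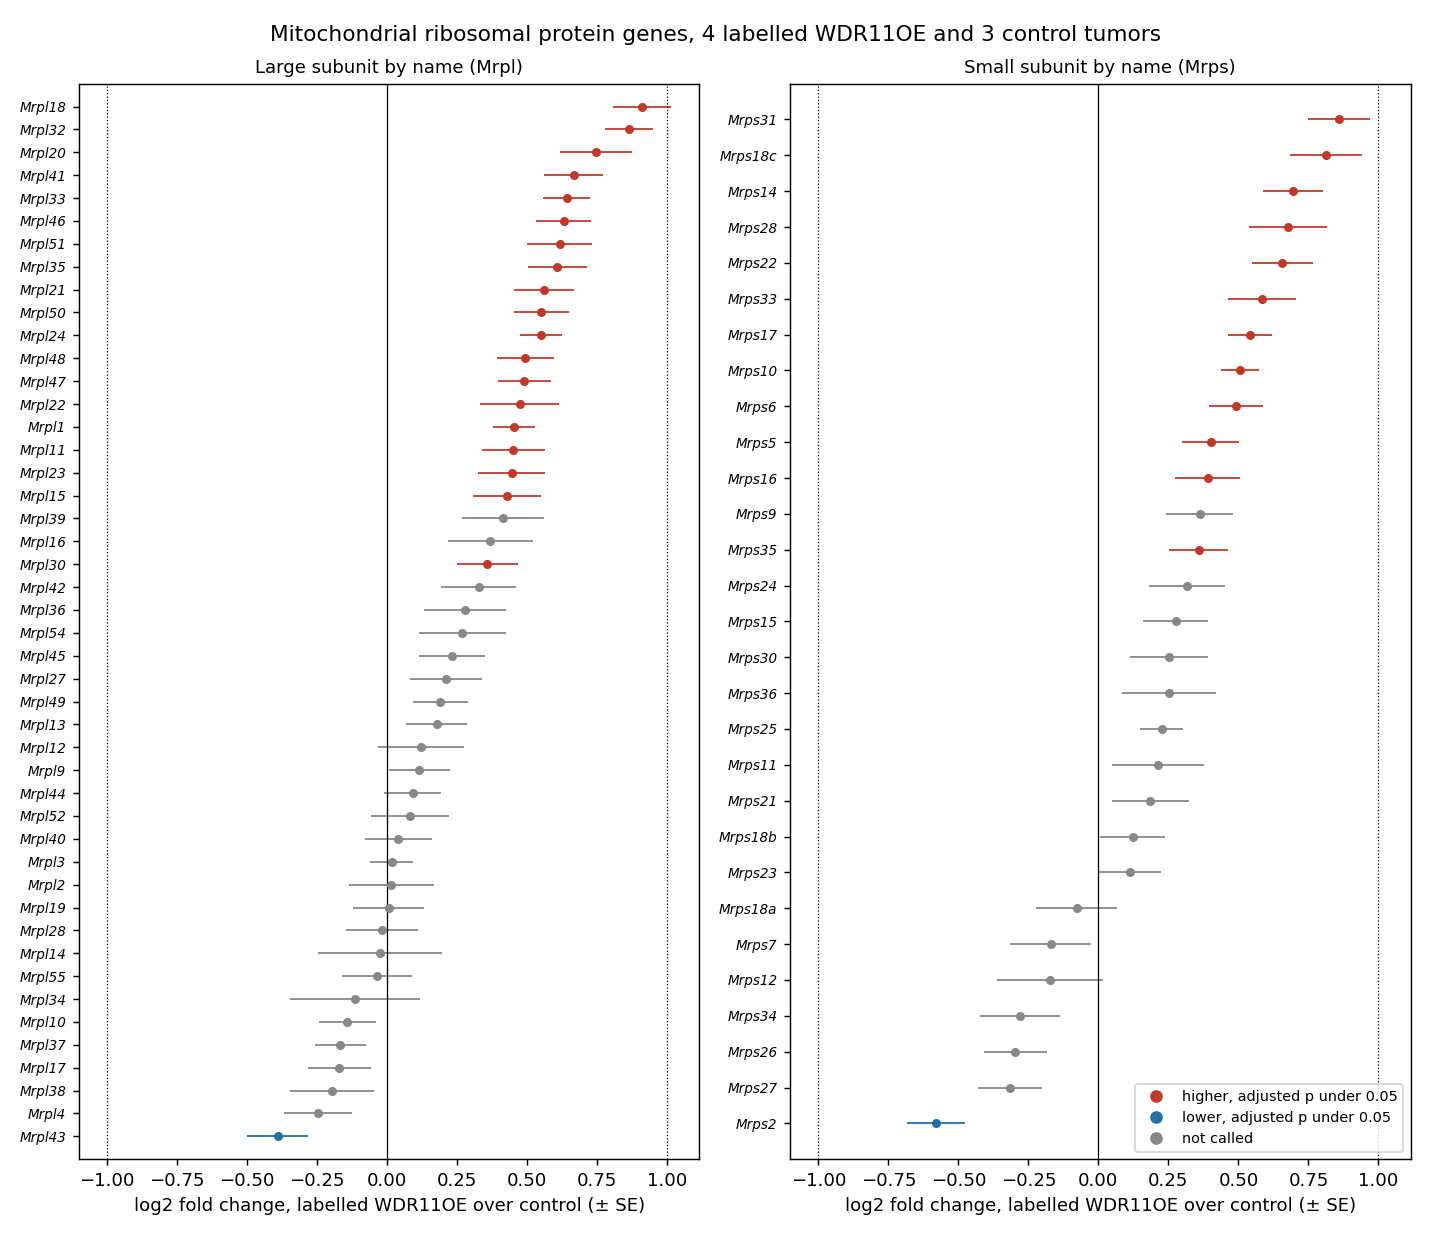
Each point is the log2 fold change (labelled WDR11OE over control, horizontal axis) of a tested member with its SE as a bar, sorted within the large (left) and small (right) subunit names, and dotted lines mark a 2-fold change. The 31 members called higher reach 0.91, the 2 called lower are Mrps2 and Mrpl43, and no point reaches a dotted line.

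All 31 higher calls kept a log2 fold change above 0 under limma-voom, DESeq2, scaling by library size alone, upper quartile scaling, the filters, the trend removals and each left-out library. The number of calls moved more. Without WDR11OE 1 or without WDR11OE 2, 20 members were called higher in both cases, where all genes gave 9.12% and 9.65%, and leaving out any other single library gave between 23 and 34, where all genes gave between 11.6% and 17.6%. Calls of lower members were 4 without control 1, against 13.9% of all genes, and 1 without WDR11OE 1, without WDR11OE 3, without control 2 or without control 3, against 11.7% to 13.1%. With WDR11OE 1 and 2 summed into 1 library, 21 members were higher and 1 lower (edgeR), against 9.51% and 12.2% of all genes. With the log2 summed neuron markers as a covariate, which was chosen after seeing the data, 33 members were higher and 10 lower (edgeR), against 24.0% and 20.5% of all genes.

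The number of calls depended most on base composition and length. Exon GC content had a median of 50.4% over the tested members, close to the 50.02% of all 14919 protein-coding genes tested, while the median exon length was 1708 bases for members and 3652 for the protein-coding genes. Across the 75 members, which share the 7 libraries and are not independent, fold change fell with GC content (Spearman rho = -0.52), as it did across all protein-coding genes (rho = -0.35). Among the 25 members with the lowest GC content, from 40.9% to 47.7%, 17 were called higher and the median log2 fold change was 0.49, where 28.4% of the protein-coding genes in that range were called higher. Among the 25 with the highest GC content, up to 60.3%, 5 were called higher and the median was 0.02, where 6.36% of the protein-coding genes in that range were called. The 25 members between gave 9 higher calls and a median of 0.28, where 12.6% of the protein-coding genes in that range were called higher.

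When a loess trend of counts on GC content was removed from each tumor, 6 members were called higher (Mrpl18, Mrpl20, Mrpl41, Mrpl46, Mrps10 and Mrps28) and 0 lower (edgeR), against 4.44% and 7.97% of all genes. The split of all calls then turned from 53.4% higher to 35.8% higher. The median log2 fold change of the members stayed at 0.29 with the GC trend removed and was 0.13 with a length trend removed, where 9 members were called higher and 1 lower, against 7.94% and 9.87% of all genes. With both trends removed, an alternative chosen after seeing the data, 3 members were higher (Mrpl18, Mrpl33 and Mrps10) and 1 lower (Mrpl43), against 3.16% and 6.64%, and the median was 0.10. With both trends removed the share of members called higher was thus near that of all genes. Over all genes tested, the median log2 fold change was 0.06 with the GC trend removed, 0.05 with the length trend removed and 0.02 with both removed. Mrpl18 and Mrps10 were called higher under every alternative. Whether the trends came from the libraries or from the tumors was not tested.

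**Figure D3:**
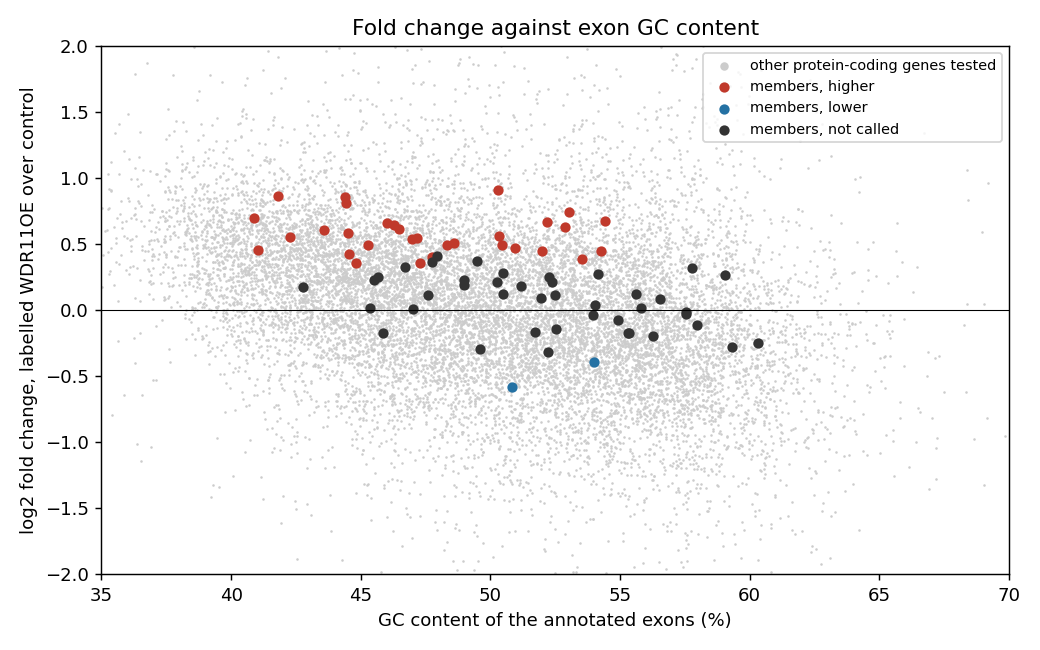
Log2 fold change (labelled WDR11OE over control, vertical axis) is plotted against exon GC content in percent (horizontal axis) for members (large points) and other protein-coding genes tested (small gray points), with 251 of the latter outside the axes. Members called higher lie mostly at low GC content, with a median of 47.2% against 52.2% for the other members.

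Among the 46 tested genes named for the large subunit, 19 were higher and 1 was lower, against 18.1% and 15.8% of all genes, with a median log2 fold change of 0.27. Mrpl32 (ENSMUSG00000015672; mm9 chr13:14702568-14705304, minus strand) had the smallest p of all members. Its precursor is cut by the m-AAA protease of the inner membrane before it joins the ribosome. It was at 14.95, 15.2 and 16.2 CPM in the controls and 28.4, 30.2, 27.7 and 26.3 CPM in the tumors labelled WDR11OE. Every tumor labelled WDR11OE lay above every control, and the groups were each tight (log2 fold change 0.86 ± 0.09, SE; edgeR's quasi-likelihood test, adjusted p = 0.00105). It no longer passed with the GC trend removed and with both trends removed (log2 fold change 0.59 and 0.09; edgeR, adjusted p = 0.0660 and 0.630). The log2 fold change was 0.54 with the length trend removed (edgeR, adjusted p = 0.0150). Of the protease genes, Spg7 was at 50.9, 45.4 and 57.9 CPM in the controls and 39.4, 38.6, 39.9 and 37.6 CPM in the tumors labelled WDR11OE and was lower (log2 fold change -0.40 ± 0.09, SE; edgeR, adjusted p = 0.0124), while its partner Afg3l2 did not pass (log2 fold change -0.08, edgeR, adjusted p = 0.565). The call of Spg7 was lost with the GC trend removed, with the length trend removed and with both trends removed (log2 fold change -0.27, -0.36 and -0.18; edgeR, adjusted p = 0.278, 0.168 and 0.563).

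Mrpl18 (ENSMUSG00000057388; mm9 chr17:13104215-13109211, minus strand), a relative of the bacterial protein that binds 5S rRNA, showed the largest fold change of the family. It was at 28.3, 30.95 and 37.4 CPM in the controls and 61.6, 63.8, 59.2 and 57.7 CPM in the tumors labelled WDR11OE. The lowest tumor labelled WDR11OE stood well above the highest control, control 3 (log2 fold change 0.91 ± 0.10, SE; edgeR, adjusted p = 0.00125). It kept its call in all 18 alternatives, with log2 fold changes from 0.66 to 1.03 and adjusted p-values up to 0.0183. Without control 3 it was the one member to reach the 2-fold call. Exons of Mrpl18 overlap those of Tcp1 on the opposite strand, and the strand setting of the counting is not given in the sources used here, so its reads and those of Tcp1 cannot be told apart with certainty.

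Mrpl33, whose bacterial relative sits near the exit site for tRNA, was at 25.8, 25.6 and 30.6 CPM in the controls and 41.4, 43.6, 43.2 and 42.3 CPM in the tumors labelled WDR11OE. No tumor crossed the gap between the groups (log2 fold change 0.64 ± 0.08, SE; edgeR, adjusted p = 0.00176). This call ended with the GC trend removed (log2 fold change 0.54; edgeR, adjusted p = 0.0509). Mrpl24, a relative of the bacterial protein that starts assembly of the large subunit, was at 37.3, 41.99 and 40.8 CPM in the controls and 60.8, 60.97, 58.2 and 54.2 CPM in the tumors labelled WDR11OE. All tumors labelled WDR11OE were higher, by a log2 fold change of 0.55 ± 0.07 (SE; edgeR, adjusted p = 0.00198). The call was lost with the GC trend removed, with the length trend removed and with both trends removed (log2 fold change 0.49, 0.47 and 0.32; edgeR, adjusted p = 0.0789, 0.0511 and 0.167). Mrpl20, whose bacterial relative also acts early in assembly, was at 30.6, 29.9 and 39.5 CPM in the controls and 54.1, 63.4, 55.9 and 50.1 CPM in the tumors labelled WDR11OE. Its log2 fold change was 0.75 ± 0.13 (SE; edgeR, adjusted p = 0.00453), with control 3 again the highest control. It no longer passed with both trends removed (log2 fold change 0.54; edgeR, adjusted p = 0.0524).

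Mrpl41 and Mrpl46 have no bacterial counterpart. Mrpl41, which has also been described as a partner of Bcl2, was at 13.5, 13.9 and 16.6 CPM in the controls and 22.5, 22.8, 23.4 and 24.3 CPM in the tumors labelled WDR11OE. Mrpl46 was at 11.4, 12.1 and 12.9 CPM in the controls and 19.7, 19.7, 18.1 and 17.99 CPM in the tumors labelled WDR11OE. Neither gene overlapped between the groups, and the log2 fold changes were 0.67 ± 0.10 for Mrpl41 (SE; edgeR, adjusted p = 0.00342) and 0.63 ± 0.10 for Mrpl46 (SE; edgeR, adjusted p = 0.00343). Both kept the call with the GC trend removed. The call of Mrpl41 was lost with the length trend removed and with both trends removed (log2 fold change 0.35 and 0.37; edgeR, adjusted p = 0.0809 and 0.0932). The call of Mrpl46 was lost with the length trend removed and with both trends removed (log2 fold change 0.45 and 0.47; edgeR, adjusted p = 0.0535 and 0.0598). The remaining large-subunit genes called higher were Mrpl1, Mrpl11, Mrpl15, Mrpl21, Mrpl22, Mrpl23, Mrpl30, Mrpl35, Mrpl47, Mrpl48, Mrpl50 and Mrpl51, with log2 fold changes between 0.36 and 0.62.

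Mrpl43 (ENSMUSG00000025208; mm9 chr19:45079504-45080932, minus strand), a large-subunit protein found in mitochondria and not in bacteria, was the one large-subunit gene called lower. It was at 21.7, 22.3 and 26.5 CPM in the controls and 18.1, 19.6, 16.4 and 17.6 CPM in the tumors labelled WDR11OE. The groups did not overlap but came close, with WDR11OE 2 at 19.6 CPM under control 1 at 21.7 CPM (log2 fold change -0.39 ± 0.11, SE; edgeR, adjusted p = 0.0296). Of 18 alternatives, 12 kept the call. The call was lost with the GC trend removed and with WDR11OE 1 and 2 summed (log2 fold change -0.27 and -0.45; edgeR, adjusted p = 0.353 and 0.0644) and also without WDR11OE 1, WDR11OE 3, control 2 or control 3 (log2 fold change -0.43, -0.35, -0.43 and -0.30; edgeR, adjusted p = 0.0836, 0.0728, 0.0610 and 0.0936). The log2 fold change was -0.61 with the length trend removed (edgeR, adjusted p = 0.0178). Exons of Mrpl43 overlap those of Peo1 on the opposite strand. Peo1, the gene of the helicase that copies mitochondrial DNA, was at 58.3, 69.5 and 74.6 CPM in the controls and 48.9, 51.5, 47.5 and 46.3 CPM in the tumors labelled WDR11OE and was also lower (log2 fold change -0.48 ± 0.09, SE; edgeR, adjusted p = 0.00785). The call of Peo1 was lost with the GC trend removed, with the length trend removed and with both trends removed (log2 fold change -0.36, -0.46 and -0.32; edgeR, adjusted p = 0.178, 0.0994 and 0.275).

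Mrpl12 forms the stalk that recruits translation factors and is also known to bind the mitochondrial RNA polymerase. It was at 49.8, 62.3 and 72.9 CPM in the controls and 71.9, 75.8, 64.8 and 55.7 CPM in the tumors labelled WDR11OE, so that controls 2 and 3 fell within the range of the tumors labelled WDR11OE (log2 fold change 0.12 ± 0.15, SE; edgeR, adjusted p = 0.593). Mrps30, which carries a small-subunit name but sits in the large subunit, was at 28.8, 31.95 and 38.3 CPM in the controls and 45.1, 42.4, 35.99 and 33.9 CPM in the tumors labelled WDR11OE. Control 3 lay above WDR11OE 3 and 4, and the log2 fold change of 0.25 ± 0.14 (SE) did not pass (edgeR, adjusted p = 0.208). Neither gene passed in any of the 18 alternatives.

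Among the 29 tested genes named for the small subunit, 12 were higher and 1 was lower, against 18.1% and 15.8% of all genes, with a median log2 fold change of 0.28. Large and small subunit names called higher numbered 4 and 2 with the GC trend removed, against 4.44% of all genes, and 2 and 1 with both trends removed, against 3.16%. The ratio of summed Mrpl to summed Mrps CPM was 1.88, 1.89 and 1.92 in the controls and 1.90, 1.96, 1.93 and 1.91 in the tumors labelled WDR11OE, with overlap between the groups. Mrps31, a protein found in animal mitochondria and first described as a diabetes autoantigen, was at 15.04, 16.4 and 18.8 CPM in the controls and 31.4, 33.4, 27.8 and 28.7 CPM in the tumors labelled WDR11OE. Every tumor labelled WDR11OE was above every control (log2 fold change 0.86 ± 0.11, SE; edgeR, adjusted p = 0.00176). With the GC trend removed and with both trends removed (log2 fold change 0.70 and 0.38; edgeR, adjusted p = 0.0524 and 0.135) the call was lost. Mrps10, a relative of a bacterial protein in the head of the small subunit, was at 23.2, 25.2 and 23.8 CPM in the controls and 35.05, 33.1, 34.8 and 33.8 CPM in the tumors labelled WDR11OE. The spread within each group was small, and the log2 fold change of 0.51 ± 0.07 (SE; edgeR, adjusted p = 0.00190) kept its call in all 18 alternatives, at adjusted p-values up to 0.0486.

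Mrps17 and Mrps14 are both relatives of bacterial proteins that bind the RNA of the small subunit. Mrps17 was at 38.1, 38.5 and 41.9 CPM in the controls and 61.9, 59.6, 54.7 and 53.5 CPM in the tumors labelled WDR11OE. Mrps14, the member with the lowest exon GC content (40.9%), was at 25.4, 23.6 and 31.05 CPM in the controls and 43.9, 44.96, 43.9 and 39.8 CPM in the tumors labelled WDR11OE. Both rose without overlap, by log2 fold changes of 0.54 ± 0.08 (SE; edgeR, adjusted p = 0.00246) and 0.69 ± 0.11 (SE; edgeR, adjusted p = 0.00327). The call of Mrps17 was lost with the GC trend removed, with the length trend removed and with both trends removed (log2 fold change 0.48, 0.47 and 0.31; edgeR, adjusted p = 0.0963, 0.0612 and 0.192). The call of Mrps14 was lost with the GC trend removed and with both trends removed (log2 fold change 0.35 and 0.30; edgeR, adjusted p = 0.248 and 0.291). The remaining small-subunit names called higher were Mrps5, Mrps6, Mrps16, Mrps18c, Mrps22, Mrps28, Mrps33 and Mrps35.

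Mammals have 3 paralogs of the bacterial protein S18, of which 1 passed the test. Mrps18c, which takes the bacterial position in the small subunit, was at 11.7, 10.6 and 14.2 CPM in the controls and 21.3, 23.1, 19.8 and 20.997 CPM in the tumors labelled WDR11OE. It was higher without overlap (log2 fold change 0.81 ± 0.13, SE; edgeR, adjusted p = 0.00351). It no longer passed with the GC trend removed and with both trends removed (log2 fold change 0.64 and 0.24; edgeR, adjusted p = 0.0687 and 0.325). Mrps18b, also a small-subunit protein, was at 29.6, 30.3 and 37.2 CPM in the controls and 39.4, 35.6, 30.8 and 34.9 CPM in the tumors labelled WDR11OE, with control 3 above WDR11OE 2, 3 and 4. Mrps18a, which sits in the large subunit in spite of its name, was at 22.1, 26.6 and 29.1 CPM in the controls and 29.1, 25.6, 21.4 and 22.3 CPM in the tumors labelled WDR11OE, with the groups mixed. Neither passed, at log2 fold changes of 0.12 ± 0.12 (SE; edgeR, adjusted p = 0.470) and -0.08 ± 0.14 (SE; edgeR, adjusted p = 0.720), and the difference between the paralogs was not tested. Exon GC content was 44.4% in Mrps18c, 50.5% in Mrps18b and 54.9% in Mrps18a.

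Mrps2 (ENSMUSG00000035772; mm9 chr2:28323586-28326698, plus strand), a relative of a bacterial protein that joins the small subunit late, fell furthest of all members. It was at 43.3, 45.7 and 50.6 CPM in the controls and 35.6, 31.8, 29.3 and 27.9 CPM in the tumors labelled WDR11OE. Every tumor labelled WDR11OE lay below every control (log2 fold change -0.58 ± 0.10, SE; edgeR, adjusted p = 0.00537). With the GC trend removed, with the length trend removed and with both trends removed (log2 fold change -0.51, -0.60 and -0.59; edgeR, adjusted p = 0.102, 0.0508 and 0.0644) the call was lost. It held in the other 15 alternatives, with log2 fold changes from -0.69 to -0.51 over all 18.

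Mrps27, a protein with RNA-binding repeats, was at 28.9, 32.2 and 38.3 CPM in the controls and 27.9, 28.8, 24.6 and 25.3 CPM in the tumors labelled WDR11OE. Mrps26 was at 27.6, 28.6 and 35.6 CPM in the controls and 26.5, 25.8, 24.7 and 22.6 CPM in the tumors labelled WDR11OE. In both the groups did not overlap, but the log2 fold changes of -0.31 ± 0.11 for Mrps27 (SE; edgeR, adjusted p = 0.0721) and -0.30 ± 0.11 for Mrps26 (SE; edgeR, adjusted p = 0.0804) did not pass. An exact permutation test over the 35 splits of the tumors, two-sided, gave p = 0.0286 for each, the smallest p this design allows. Of all genes tested, 19.1% were lower without overlap, so this p does not set the 2 genes apart. Mrps27 passed in 4 of the 18 alternatives and Mrps26 in 1. Mrps34 was at 13.95, 14.4 and 18.7 CPM in the controls and 13.3, 13.96, 12.9 and 11.4 CPM in the tumors labelled WDR11OE, with WDR11OE 2 just above control 1 (log2 fold change -0.28 ± 0.14, SE; edgeR, adjusted p = 0.174). Exons of Mrps34 share 763 bases with Nme3 on the same strand, so its reads are uncertain. Mrps36, now regarded as a part of the oxoglutarate dehydrogenase complex and not of the ribosome, was at 9.31, 11.3 and 12.2 CPM in the controls and 14.7, 14.8, 10.8 and 11.8 CPM in the tumors labelled WDR11OE and did not pass (log2 fold change 0.25 ± 0.17, SE; edgeR, adjusted p = 0.297).

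Levels were compared between genes as CPM per kilobase of annotated exon (RPKM). Over the 75 tested members the mean level ran from 3.70 to 59.2 RPKM, with a median of 16.4. By CPM alone Mrpl15 was the highest member, at a mean of 70.5 over the 7 tumors, with 5668 bases of annotated exon. On the RPKM scale Mrpl42, Mrpl52 and Mrpl20 were the most abundant, with 666, 412 and 1084 bases. Mrpl42 was at 51.7 ± 9.87 RPKM (SD, n = 3) in the controls and 64.8 ± 4.06 RPKM (SD, n = 4) in the tumors labelled WDR11OE on this scale. Mrpl52 was at 53.1 ± 8.61 RPKM (SD, n = 3) in the controls and 56.2 ± 5.80 RPKM (SD, n = 4) in the tumors labelled WDR11OE, and neither of these passed the test (edgeR, adjusted p = 0.101 and 0.692). The lowest levels were those of Mrps10, Mrpl48 and Mrpl33, at 3.70, 4.63 and 4.83 RPKM over the 7 tumors. The annotated exons of these 3 genes sum to 8079, 6139 and 7473 bases, and exons that these tumors do not use would lower the level on this scale. Mrpl48 was at 21.3, 21.3 and 26.6 CPM in the controls and 32.6, 34.4, 31.5 and 31.4 CPM in the tumors labelled WDR11OE (log2 fold change 0.49 ± 0.10, SE; edgeR, adjusted p = 0.00970). Its call was lost with the GC trend removed, with the length trend removed, with both trends removed and with WDR11OE 1 and 2 summed (log2 fold change 0.47, 0.61, 0.62 and 0.44; edgeR, adjusted p = 0.109, 0.0781, 0.0875 and 0.0575) and also without WDR11OE 1 or WDR11OE 2 (log2 fold change 0.45 and 0.42; edgeR, adjusted p = 0.0591 and 0.0593).

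Some rows could not be read as a single gene. Mrpl53 had 0 counts in all 7 tumors, which allows up to 0.0924 CPM (3 counts) in the shallowest library, and 640 of its 735 exon bases lie within exons of Ccdc142 on the same strand (mm9 chr6:83059089-83059933, plus strand). Exons of 6 members share bases with another gene on the same strand and those of 22 with a gene on the opposite strand. On the same strand these are, besides Mrpl53 and Mrps34, Mrpl48 (1865 bases with D630004N19Rik), Mrps6 (696 bases with Slc5a3), Mrps24 (226 bases with Urgcp) and Mrpl33 (147 bases with Bre), so reads of these rows are uncertain as well. Pseudogenes also had reads. Mrpl23-ps1 had 382, 456 and 476 counts in the controls and 777, 1457, 494 and 1437 in the tumors labelled WDR11OE, about as many as Mrpl23 itself (404, 472 and 434 and 754, 1318, 512 and 1354), so the values of Mrpl23 are uncertain. Mrpl48-ps and Mrps36-ps2 had far fewer, at most 107 and 24 counts in any tumor. Mrps36-ps1 had 47, 78 and 50 counts in the controls and 125, 244, 64 and 206 in the tumors labelled WDR11OE. Mrps36 itself had 335, 474 and 397 and 619, 1185, 350 and 1076, so its values are uncertain as well. The limit given for Mrpl53 covers counting error only.

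The members were also split by their numbers, since numbers up to 36 in the Mrpl series and up to 21 in the Mrps series were largely given to relatives of bacterial ribosomal proteins and higher numbers to proteins gained by mitochondria. Of 44 tested genes with low numbers, 20 were higher and 1 was lower (median log2 fold change 0.32). Of 31 with high numbers, 11 were higher and 1 was lower (median 0.25), both against 18.1% and 15.8% of all genes. Removal of the GC trend left 3 low and 3 high numbers called higher, against 4.44% of all genes, and removal of both trends 3 and 0, against 3.16%. The difference between these classes was not tested. The 42 members that were not called had log2 fold changes from -0.31 to 0.41 (median 0.10), 27 of them above 0, and the groups overlapped in 38 of them.

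Many of the genes share a start region with a neighbour. Of the 75 tested members, 28 (37.3%) had a protein-coding gene on the other strand that starts within 1000 bases and runs the other way, compared with 14.4% of the 14919 protein-coding genes tested. Mrpl46 and Mrps11 are neighbours of each other, so these made 27 distinct pairs, of which 17 had fold changes of the same sign. Of the 26 neighbours outside the family, 7 were called higher and 8 lower, against 18.1% and 15.8% of all genes. These numbers became 0 and 3 with the GC trend removed, against 4.44% and 7.97%, and with both trends removed 1 and 2, against 3.16% and 6.64%. The median log2 fold change of these neighbours was then 0.12 and 0.16 against 0.10 before. Before any trend was removed, where the member was called higher, 6 of 11 neighbours were higher and 2 lower. Where it was not, 1 of 15 were higher and 6 lower. Psma2, a proteasome subunit gene whose start lies 217 bases from that of Mrpl32, was at 64.2, 63.95 and 84.6 CPM in the controls and 146, 146, 119.5 and 127 CPM in the tumors labelled WDR11OE and was higher (log2 fold change 0.93 ± 0.13, SE; edgeR, adjusted p = 0.00228). The call was lost with the GC trend removed and with both trends removed (log2 fold change 0.54 and 0.45; edgeR, adjusted p = 0.138 and 0.179). Tcp1, a chaperonin subunit gene 644 bases from Mrpl18, was at 427, 387 and 518 CPM in the controls and 728, 711, 636 and 669 CPM in the tumors labelled WDR11OE and was higher too (log2 fold change 0.63 ± 0.12, SE; edgeR, adjusted p = 0.00702). The call of Tcp1 was lost with the GC trend removed, with the length trend removed and with both trends removed (log2 fold change 0.37, 0.71 and 0.41; edgeR, adjusted p = 0.258, 0.0618 and 0.250). Neither Psma2 nor Tcp1 overlapped between the groups.

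Other pairs did not share a call, and differences between the partners were not tested. Mrpl46 and Mrps11 start 412 bases apart with overlapping exons, and Mrps11, the other member of this pair, was at 13.5, 14.7 and 18.2 CPM in the controls and 19.5, 21.1, 15.9 and 15.2 CPM in the tumors labelled WDR11OE and did not pass (log2 fold change 0.21 ± 0.16, SE; edgeR, adjusted p = 0.368). The neighbour of Mrps18c, the helicase gene Helq, starts 27 bases away and had a log2 fold change of 0.27 ± 0.09 (SE; edgeR, adjusted p = 0.0654). Pnpla7, the neighbour of Mrpl41, had -0.13 ± 0.12 (SE; edgeR, adjusted p = 0.466). The neighbours of the uncalled Mrps27 and Mrps34 pointed the other way from their partners, with log2 fold changes of 0.33 ± 0.11 in Ptcd2 (SE; edgeR, adjusted p = 0.0581) and 0.36 ± 0.11 in Eme2 (SE; edgeR, adjusted p = 0.0364). The call of Eme2 was lost scaled by library size only, without a filter, with the GC trend removed, with the length trend removed and with WDR11OE 1 and 2 summed (log2 fold change 0.35, 0.30, 0.51, 0.47 and 0.32; edgeR, adjusted p = 0.0580, 0.125, 0.0673, 0.0843 and 0.136) and also without WDR11OE 1, WDR11OE 2, WDR11OE 3, control 2 or control 3 (log2 fold change 0.31, 0.34, 0.31, 0.33 and 0.33; edgeR, adjusted p = 0.152, 0.121, 0.0923, 0.108 and 0.0952). The log2 fold change was 0.74 with both trends removed (edgeR, adjusted p = 0.0366). Exons overlap in part of these pairs, where reads of the partners cannot be told apart.

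Promoter sequences of GRCm38.p6 from RefSeq, 250 bases before to 50 bases after the start, were matched by symbol to 67 of the 76 members, as 73 windows. Short motifs were searched on both strands, and a gene was counted once where any of its windows matched. The ETS motif CCGGAAG was found in 35.8% of these members and 9.93% of all 27025 genes with windows, the NRF1 motif GCGCANGCG in 22.4% and 7.03%, the YY1 motif AAGATGGCG in 11.9% and 1.64%, and the E-box CACGTG, which MYC can bind, in 7.46% and 8.09%. Members with the NRF1 motif had a median log2 fold change of 0.12, with 3 of 15 called higher, and members without it 0.37, with 25 of 51. For the ETS motif the medians with and without it were 0.19 and 0.33, with 10 of 23 and 18 of 43 called higher, for the YY1 motif 0.25 and 0.36, with 1 of 8 and 27 of 58 called higher, and for the E-box 0.28 and 0.32, with 2 of 5 and 26 of 61 called higher. Of all genes tested, 18.1% were called higher. None of these differences was tested. A match of letters is a description and not a bound site.

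The windows of the 2 members with the smallest p and of the 2 called lower are shown 5′ to 3′, chosen by those p-values and calls alone, with the searched motifs in capitals (NRF1 in Mrpl32, where matches touch, ETS in Mrpl18 and Mrpl43, none in Mrps2).
Mrpl32 (chr13:14612988-14613287, minus strand): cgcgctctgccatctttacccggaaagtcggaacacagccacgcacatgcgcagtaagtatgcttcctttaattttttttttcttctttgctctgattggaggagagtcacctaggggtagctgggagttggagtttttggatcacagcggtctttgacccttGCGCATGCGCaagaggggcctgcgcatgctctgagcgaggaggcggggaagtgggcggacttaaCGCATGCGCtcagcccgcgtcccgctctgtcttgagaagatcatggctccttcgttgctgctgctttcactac
Mrpl18 (chr17:12916042-12916341, minus strand): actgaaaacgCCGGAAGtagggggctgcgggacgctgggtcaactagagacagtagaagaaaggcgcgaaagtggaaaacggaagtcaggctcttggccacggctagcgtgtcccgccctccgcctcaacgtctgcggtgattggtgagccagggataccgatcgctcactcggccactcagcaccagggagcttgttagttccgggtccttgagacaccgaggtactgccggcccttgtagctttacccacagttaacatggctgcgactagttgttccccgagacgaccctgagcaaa
Mrps2 (chr2:28467816-28468115, plus strand): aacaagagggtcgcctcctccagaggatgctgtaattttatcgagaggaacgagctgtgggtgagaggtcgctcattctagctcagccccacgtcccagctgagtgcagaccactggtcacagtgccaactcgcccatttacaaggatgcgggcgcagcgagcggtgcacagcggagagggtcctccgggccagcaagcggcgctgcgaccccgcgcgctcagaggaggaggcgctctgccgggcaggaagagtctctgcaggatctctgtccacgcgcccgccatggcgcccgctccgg
Mrpl43 (chr19:45006393-45006692, minus strand): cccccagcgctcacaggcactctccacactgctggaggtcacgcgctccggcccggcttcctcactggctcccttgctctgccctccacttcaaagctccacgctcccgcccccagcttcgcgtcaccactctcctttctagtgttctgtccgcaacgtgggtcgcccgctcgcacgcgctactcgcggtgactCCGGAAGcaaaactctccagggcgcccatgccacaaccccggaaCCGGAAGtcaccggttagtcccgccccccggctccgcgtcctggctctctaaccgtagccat

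Ribosomal proteins whose genes carry other names were given by a list of 7 genes, of which 3 were higher and 0 lower (median log2 fold change 0.30), against 18.1% and 15.8% of all genes. After the GC trend was removed, 1 was higher and 0 lower, against 4.44% and 7.97% of all genes, and with both trends removed 0 and 0, against 3.16% and 6.64%, with a median log2 fold change of 0.35 and 0.33. Ptcd3, an RNA-binding protein of the small subunit, was at 105, 91.5 and 112 CPM in the controls and 174, 179, 179.6 and 168 CPM in the tumors labelled WDR11OE and rose in every tumor labelled WDR11OE (log2 fold change 0.77 ± 0.08, SE; edgeR, adjusted p = 0.00115). This call ended with the GC trend removed and with both trends removed (log2 fold change 0.55 and 0.41; edgeR, adjusted p = 0.0606 and 0.110). Chchd1 was at 27.1, 31.2 and 35.2 CPM in the controls and 51.9, 63.6, 56.7 and 49.1 CPM in the tumors labelled WDR11OE (log2 fold change 0.83 ± 0.12, SE; edgeR, adjusted p = 0.00285). The call was lost with both trends removed (log2 fold change 0.33; edgeR, adjusted p = 0.137). The log2 fold change was 0.46 with the length trend removed (edgeR, adjusted p = 0.0348). Aurkaip1, at 33.5, 31.6 and 44.2 CPM in the controls and 50.7, 59.5, 47.6 and 44.6 CPM in the tumors labelled WDR11OE, was the other one called, with WDR11OE 4 just above control 3 (log2 fold change 0.47 ± 0.15, SE; edgeR, adjusted p = 0.0434). It no longer passed without a filter, at 1 CPM in 3 tumors, with the GC trend removed, with the length trend removed, with both trends removed and with WDR11OE 1 and 2 summed (log2 fold change 0.42, 0.47, 0.68, 0.34, 0.52 and 0.41; edgeR, adjusted p = 0.107, 0.0552, 0.0878, 0.242, 0.124 and 0.147) and also without WDR11OE 1, WDR11OE 2, WDR11OE 3, control 1 or control 2 (log2 fold change 0.44, 0.34, 0.50, 0.41 and 0.38; edgeR, adjusted p = 0.148, 0.158, 0.0697, 0.128 and 0.146). Dap3, the GTP-binding protein of the small subunit, did not pass (log2 fold change 0.10 ± 0.09, SE; edgeR, adjusted p = 0.415).

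Of the translation factors, 5 of 14 were higher and 1 lower (median log2 fold change 0.27), against 18.1% and 15.8% of all genes. When the GC trend was removed, 0 were higher and 1 lower, against 4.44% and 7.97% of all genes, and with both trends removed 0 and 1, against 3.16% and 6.64%, with a median log2 fold change of 0.23 and 0.09. Guf1, a mitochondrial relative of the factor that moves ribosomes back, was at 64.6, 51.5 and 49.2 CPM in the controls and 86.5, 84.5, 91.7 and 100.04 CPM in the tumors labelled WDR11OE (log2 fold change 0.72 ± 0.11, SE; edgeR, adjusted p = 0.00343). With the GC trend removed and with both trends removed (log2 fold change 0.30 and 0.53; edgeR, adjusted p = 0.120 and 0.0567) the call was lost. Mtrf1l, the release factor that ends translation, was at 14.1, 15.5 and 14.5 CPM in the controls and 21.8, 19.2, 21.6 and 21.3 CPM in the tumors labelled WDR11OE (log2 fold change 0.51 ± 0.09, SE; edgeR, adjusted p = 0.00600). This call ended with the GC trend removed and with both trends removed (log2 fold change 0.42 and 0.35; edgeR, adjusted p = 0.0982 and 0.125). Oxa1l, which inserts new proteins into the inner membrane, was at 40.4, 41.2 and 47.8 CPM in the controls and 26.3, 27.8, 26.7 and 29.1 CPM in the tumors labelled WDR11OE and was lower (log2 fold change -0.65 ± 0.08, SE; edgeR, adjusted p = 0.00171). The groups did not overlap in Guf1, Mtrf1l or Oxa1l.

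Among genes for assembly of the ribosome and maturation of its RNA, 11 of 27 were higher and 3 lower (median log2 fold change 0.24), against 18.1% and 15.8% of all genes. After removal of the GC trend 2 were higher and 0 lower, against 4.44% and 7.97% of all genes, and with both trends removed 0 and 1, against 3.16% and 6.64%, with a median log2 fold change of 0.27 and 0.24. The list was led by Fastkd2, which binds the RNA of the large subunit, at 37.3, 37.6 and 37.8 CPM in the controls and 66.1, 59.7, 57.6 and 58.7 CPM in the tumors labelled WDR11OE (log2 fold change 0.69 ± 0.07, SE; edgeR, adjusted p = 0.00105). The call was lost with the GC trend removed and with both trends removed (log2 fold change 0.37 and 0.46; edgeR, adjusted p = 0.159 and 0.132). Mterfd1 (now Mterf3), a factor of mitochondrial transcription and ribosome assembly, was at 24.3, 22.6 and 22.1 CPM in the controls and 34.6, 33.6, 35.4 and 36.8 CPM in the tumors labelled WDR11OE (log2 fold change 0.61 ± 0.07, SE; edgeR, adjusted p = 0.00138). It no longer passed with the GC trend removed and with both trends removed (log2 fold change 0.27 and 0.30; edgeR, adjusted p = 0.177 and 0.148). The assembly GTPase gene Gtpbp10 was at 28.3, 24.8 and 33.1 CPM in the controls and 46.3, 45.2, 42.95 and 44.8 CPM in the tumors labelled WDR11OE (log2 fold change 0.64 ± 0.10, SE; edgeR, adjusted p = 0.00380). With the GC trend removed and with both trends removed (log2 fold change 0.19 and 0.25; edgeR, adjusted p = 0.504 and 0.398) the call was lost. In these 3 genes every tumor labelled WDR11OE lay above every control. The lower ones were Noa1, Dhx30 and C1qbp.

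For mitochondrial transcription and RNA processing, 9 of 20 were higher and 2 lower (median log2 fold change 0.34), against 18.1% and 15.8% of all genes. Once the GC trend was removed, 2 were higher and 0 lower, against 4.44% and 7.97% of all genes, and with both trends removed 2 and 0, against 3.16% and 6.64%, with a median log2 fold change of 0.22 and 0.17. Pnpt1, the exoribonuclease of mitochondrial RNA, was at 87.5, 69.4 and 80.3 CPM in the controls and 193, 178, 183 and 184 CPM in the tumors labelled WDR11OE (log2 fold change 1.22 ± 0.09, SE; edgeR, adjusted p = 0.000858). The row 1810035L17Rik, now Slirp, whose protein keeps mitochondrial mRNA stable, was at 19.3, 19.98 and 24.6 CPM in the controls and 41.8, 44.8, 44.2 and 44.6 CPM in the tumors labelled WDR11OE (log2 fold change 1.04 ± 0.10, SE; edgeR, adjusted p = 0.00105). Both kept the call with the GC trend removed (edgeR, adjusted p = 0.0162 and 0.0155), Pnpt1 with a smaller log2 fold change of 0.79, which was 0.78 with both trends removed. Polrmt, the mitochondrial RNA polymerase, was at 40.9, 46.8 and 46.6 CPM in the controls and 26.8, 28.1, 26.7 and 24.9 CPM in the tumors labelled WDR11OE and was lower (log2 fold change -0.75 ± 0.08, SE; edgeR, adjusted p = 0.00111). This call ended with the GC trend removed and with both trends removed (log2 fold change -0.43 and -0.26; edgeR, adjusted p = 0.130 and 0.503). The groups did not overlap in any of these 3 genes.

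Among 12 regulators of mitochondrial biogenesis, 0 were higher and 3 lower by edgeR, against 18.1% and 15.8% of all genes, and 0 were higher at an unadjusted p under 0.05 or by limma-voom or DESeq2. The lower ones were Myc, its partner Max and the coactivator gene Pprc1. Max was at 50.5, 52.2 and 57.8 CPM in the controls and 42.3, 42.6, 42.8 and 34.7 CPM in the tumors labelled WDR11OE (log2 fold change -0.40 ± 0.10, SE; edgeR, adjusted p = 0.0175). The call was lost with the GC trend removed, with the length trend removed, with both trends removed and with WDR11OE 1 and 2 summed (log2 fold change -0.35, -0.51, -0.56 and -0.46; edgeR, adjusted p = 0.215, 0.0548, 0.0523 and 0.0608) and also without WDR11OE 1, WDR11OE 2 or control 3 (log2 fold change -0.45, -0.47 and -0.34; edgeR, adjusted p = 0.0652, 0.0527 and 0.0617). Pprc1 was at 139, 142 and 136 CPM in the controls and 54.2, 63.002, 82.7 and 69.7 CPM in the tumors labelled WDR11OE, and its log2 fold change of -1.05 ± 0.13 (SE; edgeR, adjusted p = 0.00166) kept the call with the GC trend removed (edgeR, adjusted p = 0.00550). The log2 fold change was -0.64 with both trends removed (edgeR, adjusted p = 0.0331). Nrf1, whose protein binds the NRF1 motif, had a log2 fold change of 0.12 ± 0.07 (SE; edgeR, adjusted p = 0.216), and Gabpa, an ETS factor, -0.04 ± 0.07 (SE; edgeR, adjusted p = 0.684). Of 13 genes for mitochondrial proteases and chaperones, 1 was higher, Yme1l1 at 151, 148 and 156 CPM in the controls and 238, 247, 235 and 248 CPM in the tumors labelled WDR11OE (log2 fold change 0.67 ± 0.06, SE; edgeR, adjusted p = 0.000974), and 1 lower, Spg7, against 18.1% and 15.8% of all genes. No gene of this list was called with the GC trend or with both trends removed. The call of Yme1l1 was lost with the GC trend removed and with both trends removed (log2 fold change 0.13 and 0.33; edgeR, adjusted p = 0.602 and 0.311). Levels of Max, Pprc1 and Yme1l1 did not overlap between the groups.

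Cytosolic ribosomal protein genes and nuclear genes of the oxidative phosphorylation (OXPHOS) complexes were set beside the mitochondrial ribosome. Of the cytosolic set of 84 genes, 82 were tested, 34 were higher and 1 lower, against 18.1% and 15.8% of all genes, with a median log2 fold change of 0.36. Of 83 OXPHOS genes, 80 were tested, 36 were higher and 2 lower, against the same shares, with a median of 0.38. With the GC trend removed these became 9 and 13 higher calls, against 4.44% of all genes, and with both trends removed 4 and 5, against 3.16%. Summed levels of the cytosolic set were 45519, 45315 and 56557 CPM in the controls and 64685, 70520.2, 56829 and 54399 CPM in the tumors labelled WDR11OE, and those of the OXPHOS set were 5864, 5584 and 7322 CPM in the controls and 8218, 8605, 7228 and 7150.1 CPM in the tumors labelled WDR11OE. Control 3 was the highest control in both sets, as in the mitochondrial ribosome, and lay above WDR11OE 4 in both. The difference of the mitochondrial ribosomal genes from either set was not tested.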

How the data were processed

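The authors deposited raw counts per gene without normalization. Per the labels, TruSeq RNA v2 libraries were made from tumor RNA (the methods name total stranded sequencing), and the processing notes list CASAVA 1.7, STAR, BWA, HTSeq and mm9. The version and strand setting of the counting are not given in the sources used here.

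In R 4.3.3, genes were kept by filterByExpr of edgeR 4.0.16 (17389 genes), scaled by TMM and tested two-sided by its quasi-likelihood method (Benjamini-Hochberg over all genes). Log2 CPM used a prior count of 2. Positions, exon length and GC content came from GENCODE on the mm9 assembly and matched 33606 genes. Trends on GC content or length were removed with loess offsets (span 0.5). Single genes were also compared by exact permutation over 35 splits, smallest p 0.0286. Alternatives were limma 3.58.1 with voom, DESeq2 1.42.0, library size or upper quartile scaling, no filter, 1 CPM in 3 tumors, an adjusted p under 0.01, a prior count of 0.5, WDR11OE 1 and 2 summed, and each library left out. GC and length trends removed together and a neuron marker covariate were chosen after seeing the data. The fit was tested on simulated data.

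Members and lists were chosen with earlier results of these data known. Named members were the 10 with the smallest p, the 5 highest and 5 lowest fold changes, those passing the 2-fold call, the 3 highest and 3 lowest levels per length, untested members, and Mrps18a, Mrps18b, Mrps18c, Mrpl12, Mrps30 and Mrps36. Also named were up to 3 called genes per list with the smallest p, Wdr11, Myc, Trp53, Cdkn2c and divergent neighbours of the first 3 classes. Outside this rule, hWDR11, Dap3, Afg3l2, Nrf1, Gabpa and the remaining called members and list genes were named after their values were seen.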

Additional observations from a re-analysis of the deposited data

Results flagged for a closer look

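In the 4 tumors labelled WDR11OE, 1 tumor stood apart in 2 of 57 values examined, neither of them in a mitochondrial ribosomal protein gene. Mtrf1l was at 4.45, 4.26, 4.44 and 4.42 log2 CPM in WDR11OE 1 to 4, and the gap between WDR11OE 2 and the others was 0.841 of the whole range. Max was at 5.40, 5.42, 5.42 and 5.12 log2 CPM, and the gap between WDR11OE 4 and the others was 0.940 of the range. Both passed the limit of Dixon's test for 4 samples, which chance passes in about 1 in 20 groups.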

How the results depend on the processing

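Of 54 named genes, between 51 and 53 kept their direction and side of the threshold under another test, scaling or filter, 26 with the GC trend removed, 37 with the length trend removed, 21 with both removed and 48 with WDR11OE 1 and 2 summed. Over all genes, 5894 calls became 2158 with the GC trend removed, 3097 with the length trend removed, 1704 with both removed, 3716 with WDR11OE 1 and 2 summed, 3101 at an adjusted p under 0.01, and from 3571 to 5854 without 1 library. Higher members, 31 at first, numbered 6, 9 and 3 with the GC trend, the length trend and both removed, 21 with WDR11OE 1 and 2 summed, 23 at an adjusted p under 0.01, against 9.51% and 8.91% of all genes in these last 2, and from 20 to 34 without 1 library. Lower members, 2 at first, numbered 0 with the GC trend removed, 1 with the length trend or both removed, with WDR11OE 1 and 2 summed or at an adjusted p under 0.01 (12.2% and 8.93% of all genes in the last 2), 10 with the neuron covariate, and from 1 to 4 without 1 library. Higher members by the 2-fold call ranged from 0 to 1 without 1 library. The median log2 fold change of the members lay between 0.18 and 0.39 without 1 library and at 0.10 or above in every alternative. With a prior count of 0.5 the groups still did not overlap in 33 members that were higher and 4 that were lower. Signs turned in uncalled genes only. With the GC trend removed, Mrps34 had 0.0021 and Mrps18a 0.076. With the length trend removed, Mrpl52 had -0.34, Mrpl42 -0.014, Mrpl12 -0.033 and Pnpla7 0.015. With both removed, Mrpl52 had -0.15, Mrpl42 -0.22, Mrps18a 0.14, Mrps18b -0.019, Mrps36 -0.22 and Pnpla7 0.20. hWDR11 had -0.44 by limma-voom, -0.0048 without a filter, -0.39 with the neuron covariate and -0.18 with WDR11OE 1 and 2 summed. Without 1 library, Mrpl52 ranged from -0.036 to 0.20, Mrps18a from -0.20 to 0.012, Mrpl12 from -0.016 to 0.26 and hWDR11 from -0.37 to 0.37. No paired analysis was possible because the labels give the tumors no shared replicate numbers. The causes were not tested.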
